A study of Rattus norvegicus with 6 samples.

Results

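The genes described here are 5 genes of the endoplasmic reticulum (ER) folding and stress machinery: the chaperone genes Hspa5 (ENSRNOG00000018294), Hsp90b1 (ENSRNOG00000026963) and Calr (ENSRNOG00000003029), and the transcription factor genes Xbp1 (ENSRNOG00000010298) and Ddit3 (ENSRNOG00000006789). They were chosen by identifier because RESP18 is a protein of the secretory pathway, and all 5 were found among the 28787 gene models of the deposited count table. The rule uses no measured value, but the genes were chosen with earlier results of these data known. The table carries no gene names, and the RefSeq gene table matched 0 of its 26689 Ensembl identifiers, so the 5 names rest on the list of identifiers and were not checked against an annotation. RNA was sequenced from kidneys of male rats aged 7 weeks. The control group was the inbred Dahl Salt Sensitive (Dahl SS) strain, a model of salt-induced hypertension, and the other group was labelled Resp18 mutant, each with 3 libraries. Both groups had been moved at 6 weeks to a diet with 2% salt and were killed 1 week later, so all 6 libraries share the salt diet. The labels do not give the kind of mutation, the number of founder lines, or whether each library is a separate animal, so p-values cover only the spread among the 6 libraries, which may be technical. The row of Resp18 and those of the kidney marker genes could not be looked up by name, and the labels of genotype and tissue were therefore not checked against them.

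Proteins that enter the secretory pathway fold in the ER with the help of chaperones. When unfolded proteins accumulate there, the sensors IRE1, PERK and ATF6 start the unfolded protein response. IRE1 splices the Xbp1 messenger RNA, ATF6 is cut to release a transcription factor, and both arms raise chaperone genes such as Hspa5, while the PERK arm slows translation and, through ATF4, raises Ddit3. In the kidney, secretory and protein-reabsorbing epithelial cells carry much ER, and the response is commonly studied in tubular injury and proteinuria.

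A promoter feature that the rule did not use is shown first, because the chaperone genes and Xbp1 share it. The ER stress response element is the sequence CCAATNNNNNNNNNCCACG, in which NF-Y binds the CCAAT part and ATF6 or XBP1 the CCACG part. It was searched on both strands of RefSeq promoters on the rat build GRCr8, each running from 250 bases before to 50 bases after a gene's start. All 5 genes had a promoter in that table. The element, with every fixed letter matched, was present in the promoters of 4 of the 5 genes and in 22 of all 33469 promoters (0.0657%). The stretches below run from CCAAT to CCACG with 6 bases on either side. Capitals mark the fixed letters of the element that are matched.
Hspa5, same strand as the gene, chr3:38452967-38452997: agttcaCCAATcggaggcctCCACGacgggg
Hsp90b1, same strand, chr7:23012445-23012475: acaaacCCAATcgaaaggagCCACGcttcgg
Hsp90b1, opposite strand, chr7:23012341-23012371: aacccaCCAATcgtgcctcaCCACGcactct
Calr, opposite strand, chr19:40213129-40213159: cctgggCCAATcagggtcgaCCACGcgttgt
Xbp1, same strand, chr14:84604552-84604582: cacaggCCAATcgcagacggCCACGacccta
Ddit3, opposite strand, chr7:65001599-65001629: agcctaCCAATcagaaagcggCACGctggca

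Hspa5 is on the plus strand with its element 43 to 25 bases before the start, and Xbp1, also on the plus strand, has its own 65 to 47 bases before the start. Hsp90b1, on the minus strand, holds a pair of elements in opposite orientations, 176 to 158 and 72 to 54 bases before the start. The Calr element lies farther out, at 232 to 214 bases. Ddit3, the gene without a full match, has at 90 to 72 bases a stretch that differs at a single fixed letter, C15G, counted from 1 at the first C of CCAAT. Matches with at most 1 such difference were present in 471 of the 33469 promoters (1.41%). The element was defined from promoters of ER chaperone genes, so its presence here is a description of these genes and not a separate finding. Of 29 further ER genes listed for comparison, 22 had a promoter in the table, and 4 of these held a full match: Canx, the membrane-bound relative of calreticulin; Dnajc3, a co-chaperone of BiP; Creld2; and Derl3, a component of ER-associated degradation.

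Measured per length, the chaperones were abundant kidney transcripts and the stress factors were less so. Levels are given as the deposited FPKM, read counts scaled by the length of the gene model and by the library total. Calr, which encodes the calcium-binding lectin chaperone calreticulin, was the highest, at 282 ± 19.7 FPKM in Dahl SS and 295 ± 5.82 FPKM in mutant kidneys (SD, n = 3), and ranked 193 among the 16324 tested models by mean FPKM. Hspa5, which encodes the ER Hsp70 chaperone BiP (GRP78), stood at 211 ± 13.5 and 205 ± 6.50 FPKM, rank 321. Hsp90b1, which encodes the ER Hsp90 chaperone GRP94, stood at 186 ± 16.2 and 175 ± 10.3 FPKM, rank 394. Xbp1 was at 67.0 ± 3.90 and 72.9 ± 1.57 FPKM, rank 1255, and Ddit3, which encodes CHOP, a factor linked to cell death under prolonged stress, was at 10.7 ± 1.16 and 13.1 ± 2.11 FPKM, rank 6830. Over the 6 libraries the ranges of Calr (263 to 303 FPKM) and Hspa5 (195 to 219) did not meet, nor did those of Hsp90b1 (163 to 203), Xbp1 (62.6 to 74.5) and Ddit3 (9.37 to 15.4). Hspa5 and Hsp90b1 were the only neighbours in this order whose ranges overlapped. Hspa5 was above Hsp90b1 in every library except Dahl SS replicate 1, where their ratio was 0.959. The read counts do not separate the spliced from the unspliced Xbp1 messenger RNA, so the level of Xbp1 given here says nothing of IRE1 activity.

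**Figure D1:**
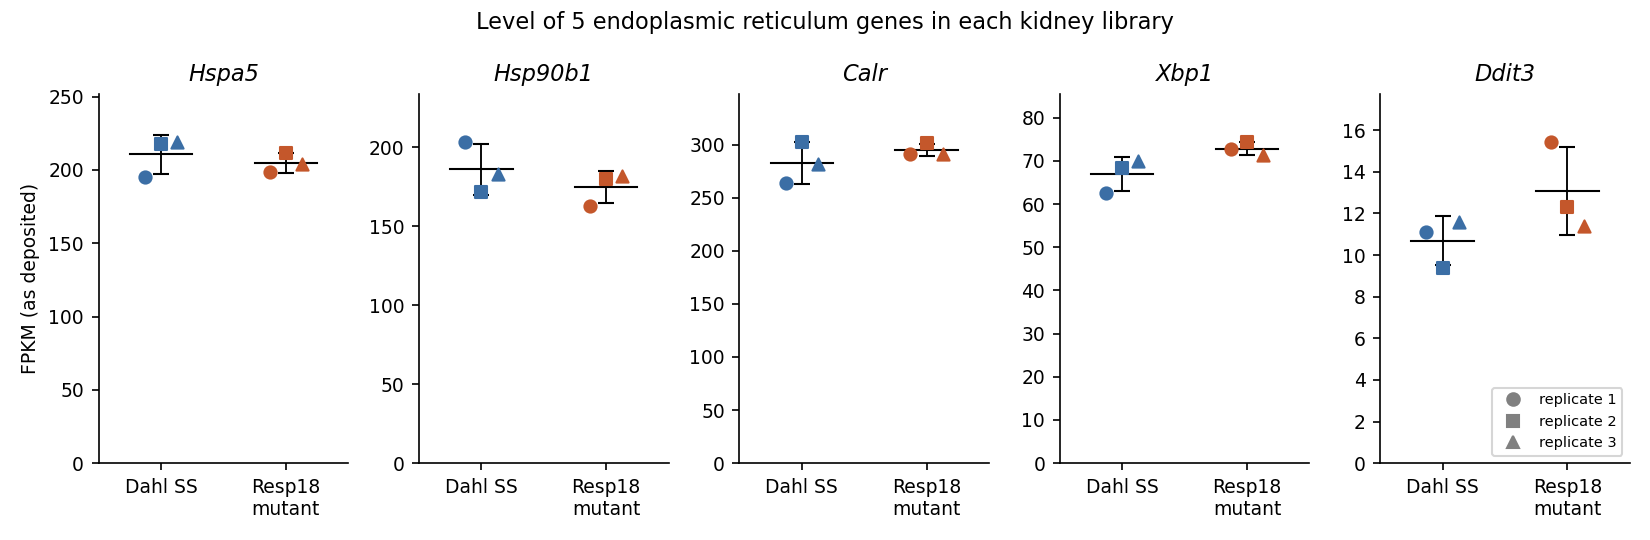
Deposited FPKM of each gene (vertical axes, from 0, a separate scale for each gene) in the 3 Dahl SS and 3 Resp18 mutant libraries; horizontal lines are group means, error bars are SD, and symbols give the replicate number. The groups overlap for Hspa5, Hsp90b1, Calr and Ddit3, and for Xbp1 the mutants (71.3 to 74.5) lie above the controls (62.6 to 69.9).

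Mutant and Dahl SS kidneys were compared to ask whether ER folding and stress transcripts differ between the groups on the salt diet. None of the 5 genes passed edgeR's quasi-likelihood test, at a false discovery rate (FDR, Benjamini-Hochberg) of 0.05 over all tested models, against a background of 0.0123% of models called (2 of 16324). None had an unadjusted edgeR p under 0.05, against 10.8% of tested models (1767). By DESeq2 none of the 5 had an adjusted p under 0.05, against 0.676% of 15678 models called. Of the 5 fold changes, 3 were above and 2 below 0, with a median log2 value of 0.07 beside 0.01 over all tested models. Whether a difference comes from fewer cells of a type or from less RNA per cell cannot be told apart in whole kidney. The Resp18 mutation and any other variation between the groups cannot be told apart either.

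Hspa5 held 490.2, 564 and 559.8 CPM (counts scaled to the library size after TMM normalization) in Dahl SS replicates 1 to 3 and 525, 542 and 514 CPM in mutant replicates 1 to 3. The mutants lay between the lowest control and the higher pair, so the groups overlapped. The log2 fold change of mutant over control was -0.03 ± 0.08 SE, a ratio of 0.980 with a 95% interval of 0.860 to 1.12 (edgeR adjusted p = 0.906). An exact two-sided permutation test of the CPM values gave p = 0.8, where 0.1 is the smallest that 3 against 3 allows. Without Dahl SS replicate 2 the log2 fold change turned to 0.01.

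Hsp90b1 held 559, 486 and 512 CPM in the Dahl SS libraries and 472, 504 and 499 CPM in those of the mutants. Dahl SS replicate 1 was the highest of the 6 libraries and mutant replicate 1 the lowest, with the other 4 within 486 to 512 CPM. The log2 fold change was -0.08 ± 0.08 SE, a ratio of 0.948 with an interval of 0.833 to 1.08 (edgeR adjusted p = 0.716; exact permutation p = 0.4). Without both of those end libraries it was 0.0090.

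Calr held 735, 871 and 798 CPM in the control libraries and 857, 858 and 813 CPM in the mutant ones. Here Dahl SS replicate 1 was the lowest library and Dahl SS replicate 2 the highest, and the 3 mutants lay within the range of the controls. The log2 fold change was 0.07 ± 0.09 SE, a ratio of 1.05 with an interval of 0.918 to 1.20 (edgeR adjusted p = 0.748; exact permutation p = 0.4). It was 0.01 without Dahl SS replicate 1 and 0.14 without Dahl SS replicate 2.

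Xbp1 held 111.8, 126.2 and 126.9 CPM in the controls and 137.1, 135.6 and 127.5 CPM in the mutants. It was the only gene of the 5 whose groups did not overlap, and the gap between mutant replicate 3 and Dahl SS replicate 3 was smaller than the spread within either group. Models with no overlap made up 17.2% of all tested models (2800), and those with the mutants higher 8.69%, so 1 of 5 is near the background. The log2 fold change was 0.13 ± 0.08 SE, a ratio of 1.10 with an interval of 0.964 to 1.25 (edgeR adjusted p = 0.548; exact permutation p = 0.1). It was 0.08 without Dahl SS replicate 1, the lowest library, and 0.06 without both Dahl SS replicate 1 and mutant replicate 1.

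Ddit3 was counted with 219, 117 and 162 reads in Dahl SS replicates 1 to 3 and with 292, 221 and 132 in the mutant replicates, or 9.40, 8.17 and 9.93 CPM against 13.7, 10.6 and 9.65 CPM. Mutant replicate 1 stood above the other 5 libraries, and mutant replicate 3 lay among the controls. The log2 fold change was 0.31 ± 0.16 SE, a ratio of 1.24 with an interval of 0.960 to 1.60 (edgeR adjusted p = 0.496; exact permutation p = 0.2). It was 0.15 without mutant replicate 1 and 0.41 without mutant replicate 3. In the latter setting Ddit3 had an unadjusted edgeR p of 0.0464, as 8.12% of models had one under 0.05, and an adjusted p of 0.608. Counting error alone amounts to 9.25% of the value in the library with the fewest Ddit3 reads, and to 1.21% or less for each of the chaperones.

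**Figure D2:**
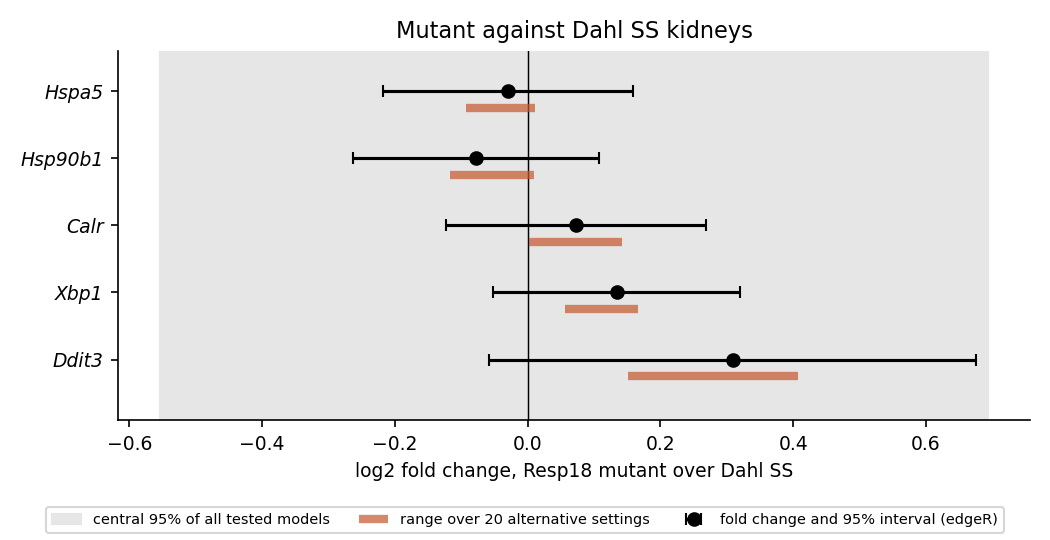
The log2 fold change of mutant over Dahl SS (horizontal axis) for each gene, with points and black bars for the edgeR value and its 95% interval, orange bars for the range over 20 alternative settings, and grey shading for the central 95% of the tested models (-0.55 to 0.69). Every interval includes 0 and lies inside the grey range.

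The intervals set the size of difference that these libraries leave possible. For 4 of the 5 genes, Ddit3 being the exception, the 95% interval excluded a change of 1.5-fold up or down. Among all tested models, 58.8% had such an interval, and among the 3279 models above 6 log2 CPM, which include these 4, 89.0% had one. A rise of Hspa5 above 1.12-fold, of Hsp90b1 above 1.08-fold or of Calr above 1.20-fold lies outside the intervals. For Ddit3 a rise of up to 1.60-fold lies inside its interval. The median absolute log2 fold change over all tested models was 0.15, and a share of 88.4% of models had a larger absolute value than Hspa5, 71.2% than Hsp90b1, 72.9% than Calr, 53.5% than Xbp1 and 21.6% than Ddit3.

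**Figure D3:**
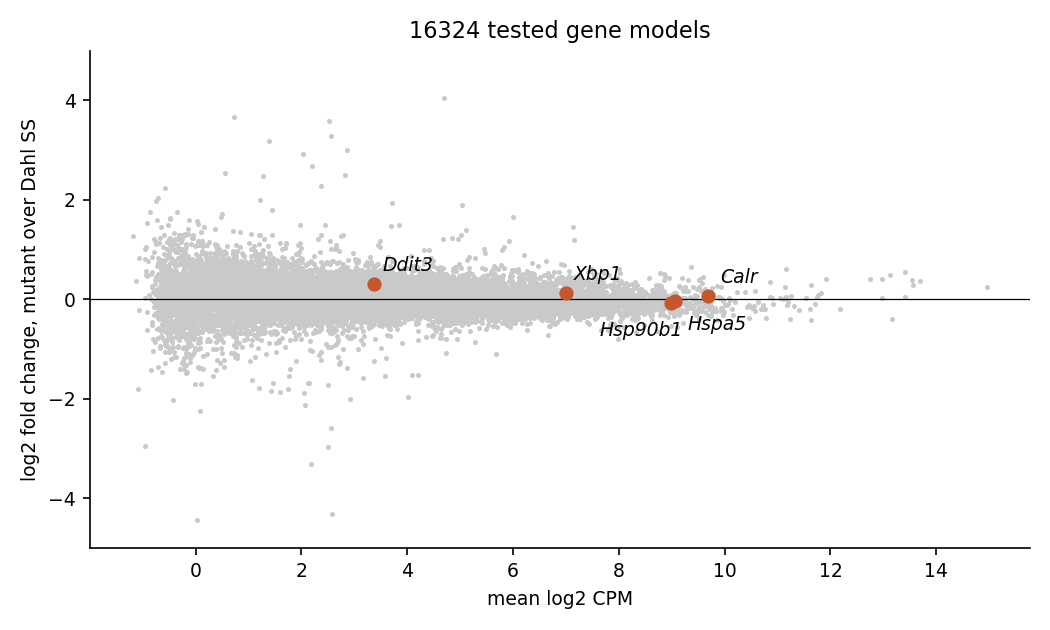
Each grey point is one of the 16324 tested gene models, by mean log2 CPM (horizontal axis) and log2 fold change of mutant over Dahl SS (vertical axis); the 5 genes are in orange. The chaperones lie at high abundance close to 0, and Ddit3, at 3.38 log2 CPM, has the largest value of the 5 (0.31).

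Ratios between genes of the same library do not depend on how libraries are scaled. Of the 10 ratios of FPKM among the 5 genes, 2 separated the groups without overlap, and both had Hspa5 as numerator. Of the ratios of Hspa5 to each of 16302 tested models detected in every library, 14.6% did so (2385), beside 2 of its 4 ratios here. Hspa5 is the gene that both separated ratios hold, so 2 of 4 is not a fair count to set beside that share. The share over ratios among all models, to set beside 2 of 10, was not computed. Xbp1 by itself also separated the groups in CPM. The 2 separated ratios are not independent: they share Hspa5, and their denominators Calr and Xbp1 had a Pearson r of 0.85 over the 6 libraries. Hspa5 over Xbp1 was 3.12, 3.18 and 3.13 in controls and 2.72, 2.84 and 2.87 in mutants, that is 3.14 ± 0.0310 against 2.81 ± 0.0754 (SD, n = 3). The controls differed from each other by less than their distance to any mutant. The log2 difference was -0.16 (exact permutation p = 0.1, 0.4 after Benjamini-Hochberg adjustment over the 10 ratios), and it ranged from -0.18 to -0.14 when each library was left out in turn. It was -0.13 after removal of the dependence of counts on model length described below, which ratios of models of unlike length do not escape. Hspa5 over Calr was 0.740, 0.718 and 0.779 in controls and 0.680, 0.701 and 0.701 in mutants, a log2 difference of -0.10 with the same p-values. The exact permutation test cannot go below 0.1 with 3 against 3 libraries, so it could not have called either ratio. For Hsp90b1 over Calr, at 0.772, 0.566 and 0.651 in controls and 0.559, 0.597 and 0.623 in mutants, mutant replicate 1 was just below the lowest control and the other mutants lay within the range of the controls.

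**Figure D4:**
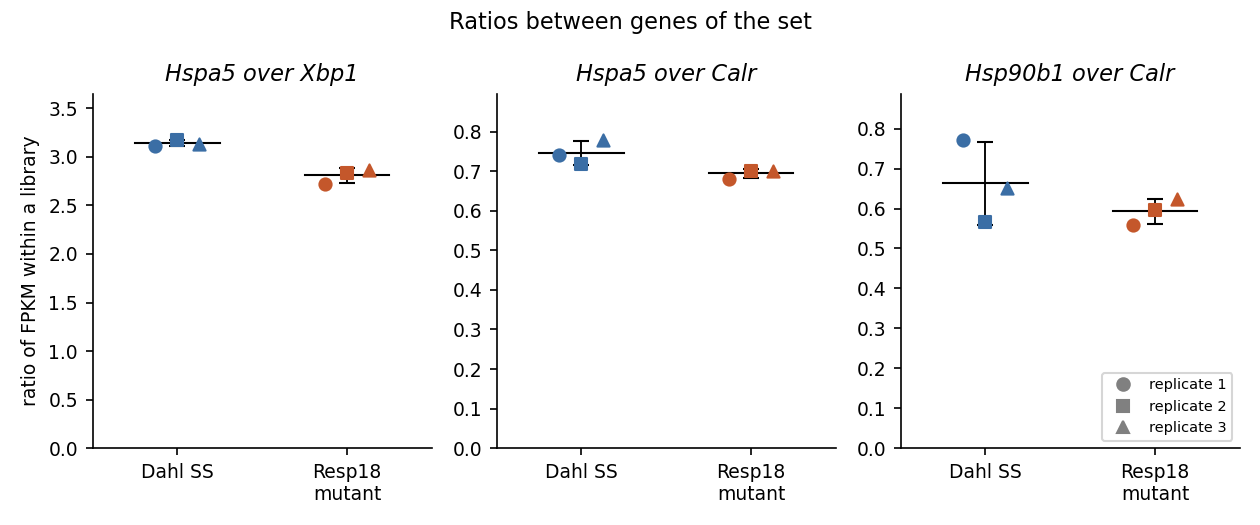
Ratio of FPKM between named genes within each library (vertical axes, from 0), by group; horizontal lines are means, error bars are SD, and symbols give the replicate number. Hspa5 over Xbp1 is 3.12 to 3.18 in controls and 2.72 to 2.87 in mutants, while for Hsp90b1 over Calr the groups overlap.

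None of the 10 pairs of genes had a correlation over the 6 libraries that passed an adjusted p of 0.05, by Pearson's r or Spearman's rho. Hsp90b1 ran opposite to Calr, with a Pearson r of log2 CPM of -0.91 (exact permutation p = 0.0222, adjusted over 10 pairs 0.157) and a Spearman rho of -0.71 (exact permutation p = 0.136, adjusted 0.583). With the 2 libraries farthest from the Hsp90b1 median left out, Dahl SS replicate 1 and mutant replicate 1, r was -0.73 over the other 4. Hsp90b1 and Xbp1 gave r = -0.86 (exact permutation p = 0.0375, adjusted 0.157; rho = -0.60, exact permutation p = 0.242, adjusted 0.604), which turned to 0.32 without the same libraries. For this pair r was -0.42 without Dahl SS replicate 1 alone and -0.80 without mutant replicate 1 alone, so it leaned more on the former. Calr and Xbp1 gave r = 0.85 (exact permutation p = 0.0472, adjusted 0.157; rho = 0.37, exact permutation p = 0.497, adjusted 0.940), and r = 0.25 without Dahl SS replicates 1 and 3. Xbp1 and Ddit3 had the largest rho of the 10 pairs, 0.89 (exact permutation p = 0.0333, adjusted 0.333), with r = 0.59 (exact permutation p = 0.225, adjusted 0.405) and r = 0.71 once Dahl SS replicate 1 and mutant replicate 1 were left out. With Dahl SS replicate 1 alone left out r was 0.85, and with mutant replicate 1 alone left out it was 0.36. The classical ER chaperones Hspa5 and Hsp90b1 had r = -0.56 (exact permutation p = 0.243, adjusted 0.405; rho = -0.31, exact permutation p = 0.564, adjusted 0.940), and r = 0.57 without Dahl SS replicates 1 and 2.

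**Figure D5:**
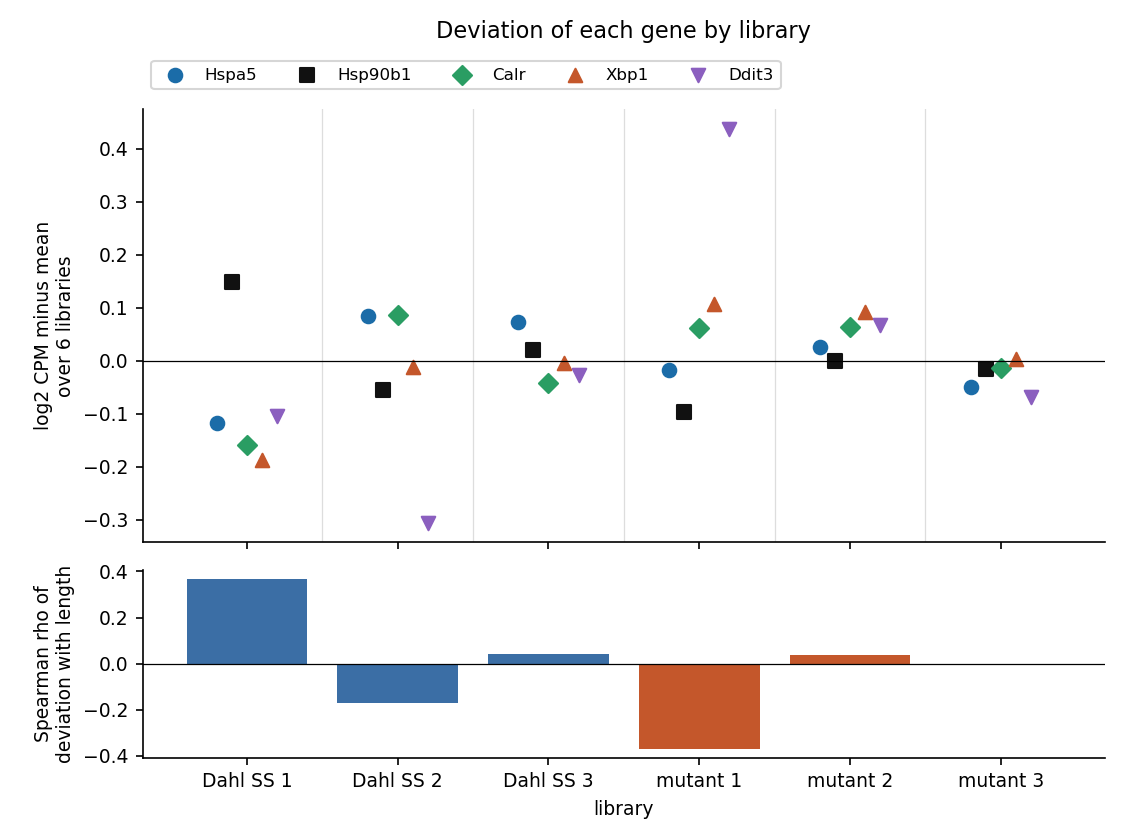
Upper panel, log2 CPM of each gene minus its mean over the 6 libraries; lower panel, Spearman correlation, over all tested models, of a library's log2 CPM deviation with model length. In Dahl SS replicate 1 Hsp90b1 is 0.15 above its mean while the other 4 genes are 0.10 to 0.19 below theirs, and Ddit3 is 0.44 above its mean in mutant replicate 1.

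Libraries of this series differ in how their counts depend on model length, most in Dahl SS replicate 1 (Spearman correlation of deviation with length 0.37) and mutant replicate 1 (-0.37). Over the 6 libraries the level of Hsp90b1 followed this value, with r = 0.98 (exact permutation p = 0.00139, the smallest that the test can give, adjusted over 5 genes 0.00694) and rho = 1.00 (exact permutation p = 0.00278, adjusted 0.0139). The value is itself computed from all tested models of these libraries, so many models follow it. Of 16323 other models, 1149 had an r of at least 0.9 with Hsp90b1. The relation is thus not shown to be particular to Hsp90b1, and the share of models that follow the value as closely was not computed. Without the 2 libraries at the ends, r for Hsp90b1 was 0.95. The level of Calr gave r = -0.84 (exact permutation p = 0.0375, adjusted 0.0938; rho = -0.71, exact permutation p = 0.136, adjusted 0.340) and -0.64 without them. Hspa5 gave r = -0.49, and -0.37 without them. Xbp1 turned from r = -0.80 to 0.50 and Ddit3 from -0.48 to 0.96. So an r near 0.95 over so few libraries was also reached by a gene that ran the other way over all 6. The deposited model lengths of Hsp90b1 and Calr are nearly equal, at 2803 and 2844 bases, against 2562 for Hspa5, 1821 for Xbp1 and 861 for Ddit3. After removal of this trend from every library, Hsp90b1 and Calr gave r = -0.94 (exact permutation p = 0.0153, adjusted 0.153). The removal corrects models of nearly equal length by nearly the same amount. It therefore could not take away an opposite relation of these genes to the trend. In that setting the log2 fold change of Ddit3, the shortest model, was 0.18 in place of 0.31 (edgeR adjusted p = 0.642). That of Hsp90b1 was -0.06 in place of -0.08 (edgeR adjusted p = 0.718).

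Likeness over the 6 libraries was also ranked against all other tested models. Ranked by Pearson r with Xbp1, Calr came 1128 among 16323 other models, Ddit3 3821, Hspa5 4469 and Hsp90b1 15394. A total of 1149 models had an r of at least 0.9 with Hsp90b1, 622 with Xbp1, 420 with Calr, 77 with Hspa5 and 59 with Ddit3. The model closest to Hsp90b1 was ENSRNOG00000025793, with r = 1.00 after rounding, and the model closest to Xbp1 was ENSRNOG00000047229, with r = 0.99. The files do not pair these identifiers with names. For the same reason the 29 further ER genes (other chaperones and folding enzymes, the 3 sensors, ATF4 targets and degradation factors) were not matched to rows, and their expression was not analysed here.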

How the data were processed

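The authors deposited 2 tables with the same rows, raw read counts and FPKM values. Per the submitters' processing notes, CASAVA 1.8, HISAT2 2.1.0, HTSeq 0.6.1 and the build Rnor 5.0 were used, without stated roles; how strand and multi-mapped reads were handled is not given in those sources. Each of the 117134 nonzero deposited FPKM values equals the count scaled by library total and a whole-number length (to within 1e-04 bases), so FPKM adds lengths and no separate measurement. Totals were 13427302 to 22854561 counts per library.

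Counts were analysed with edgeR 4.0.16 in R 4.3.3: filterByExpr (minimum count 10, minimum total 15; 16324 models), TMM, and the quasi-likelihood F test on group, Benjamini-Hochberg over all models. The SE is the log2 fold change over the square root of F. Correlations used log2 CPM with a prior count of 2. Alternatives were DESeq2 1.42.0, limma 3.58.1 (voom, and log2 of FPKM plus 1 or 0.1 from a mean FPKM of 0.5, and log2 of FPKM plus 1 unfiltered), other scalings and filters, a replicate block, left-out libraries, and loess removal of a length trend. The scripts were tested on simulated counts that held no length trend, so that test does not cover the removal of such a trend. Its outcome is not given here. The 5 genes and all lists were chosen with earlier results of these data known. Every one of the 5 is named. Likeness is Pearson r over 6 libraries, and the closest model is printed for the 2 genes whose closest model has the highest r. Kidney cell type markers were not matched to rows and not used. Promoter sequences are from RefSeq on GRCr8, a build other than that of the files, and no count was placed by them.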

Additional observations from a re-analysis of the deposited data

How the results depend on the processing

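None of the 5 genes passed an adjusted p of 0.05 under any of the 20 alternatives, and Calr, Xbp1 and Ddit3 kept their direction in all of them, from 0.0023 to 0.14, 0.06 to 0.17 and 0.15 to 0.41 (log2). Hspa5 ranged from -0.092 to 0.011 over the left-out libraries, turning positive without Dahl SS replicate 2. Hsp90b1 was 0.0090 with both end libraries of the length trend (Dahl SS replicate 1, mutant replicate 1) removed. The median log2 fold change of the 5 genes, 0.07, was 0.014 when Dahl SS replicate 1 was dropped, 0.14 when Dahl SS replicate 2 was dropped, between these for the other libraries, and 0.0090 without both end libraries. The number of models called, 2, stayed within 1.5 times of itself in 11 of 20 alternatives. It was 106 with DESeq2, 22 without both end libraries, and 1 in each of limma-voom and the limma fits to log2(FPKM + 1), log2(FPKM + 0.1) and unfiltered log2(FPKM + 1). Dropping a single library gave 1 (Dahl SS replicate 2) to 13 (Dahl SS replicate 1), with 6 for mutant replicate 3. The cause was not tested. The labels do not say whether libraries with the same replicate number were handled as pairs. Their deviations from the group means correlated at -0.274, -0.144 and -0.00176, and none correlated best with its own number. With so few libraries per group these values cannot decide whether they were pairs. With the replicate number as a block, edgeR called 2 models, and the log2 fold changes were -0.03 (Hspa5), -0.08 (Hsp90b1), 0.08 (Calr), 0.14 (Xbp1) and 0.30 (Ddit3), with the lowest adjusted p at 0.825. The ratios and the relations of the genes to the length trend were not in the planned list of results. Alternatives for correlations and ratios were chosen after seeing the data. Calr and Ddit3 turned from r = 0.21 to -0.020 with no scaling factors and to -0.17 with the length trend removed, which turned Hsp90b1 and Ddit3 from -0.39 to 0.13. Hspa5 over Hsp90b1 turned from a log2 difference of 0.05 to -0.072 without Dahl SS replicate 1 and -0.10 without both end libraries, and Hsp90b1 over Calr from -0.15 to 0.0064 without both. Depth limits Ddit3 most, at 117 to 292 reads per library.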
